A study of Mus musculus with 44 samples.

Results

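Genes known from epithelial repair in the intestine or as targets of the coactivator YAP, 9 in all, were followed in mouse small intestinal organoids by day, by treatment arm and by cell: Clu, Edn1, Thbs1, F3, Ly6a, Ccn1, Ccn2, Ahnak and Arhgap29. They were taken from a list of names, drawn up with earlier results of these data known, and all 9 were present among the 21099 genes of the RANKL count table and the 9257 genes of the RANKL+CSRM617 count table. All 9 passed the filter on low counts in the RANKL arm. In the RANKL+CSRM617 arm 6 of the 9 passed it, and Ccn2, F3 and Ahnak did not. In the fit of both arms all 9 passed.

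The organoids came from a female Lgr5GFPDTR/+ mouse, so both arms share that genotype. Before day 0 they were kept with 3 µM CHIR99021, an inhibitor of the kinase GSK3, and 1.5 mM valproic acid, an inhibitor of histone deacetylases, and then for a day without them. The RANKL arm was given 100 ng/mL RANKL, the cytokine that drives microfold cell differentiation, and was sampled daily from day 0 to day 9 with 3 plates a day. The RANKL+CSRM617 arm was given the same RANKL with 40 µM CSRM617, a compound that inhibits ONECUT2, a transcription factor, and was sampled daily from day 0 to day 6 with 2 plates a day. The labels do not say whether the plates of a day are separate cultures, so each p-value reflects only how far plates vary, possibly for technical reasons, and a day cannot be told apart from its harvest. RNA was read by CEL-Seq2, which tags each transcript near its 3′ end with a unique molecular identifier (UMI).

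After removal of wells under 1000 UMIs, 6558 cells in 30 RANKL plates and 1673 cells in 14 RANKL+CSRM617 plates were summed by plate. A RANKL plate held 155940 to 1640523 UMIs and a RANKL+CSRM617 plate 47976 to 835772. Among the smallest plates were RANKL day 0 replicate 2 with 26 cells, RANKL day 4 replicates 1 and 3 with 32 and 45 cells, and RANKL+CSRM617 day 4 replicate 2 with 24 cells. Plates shared well positions by design, and no 2 cells of a table had identical counts. All 7 epithelial markers were detected, with a summed level of 3030 to 4750 CPM (counts scaled to 1e6 per plate) per RANKL plate, whereas the 8 fibroblast markers present in that table summed to at most 11.5 CPM.

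In the Hippo pathway, the kinases MST and LATS phosphorylate YAP and its relative TAZ and keep them out of the nucleus. When the kinases are inactive, YAP binds TEAD transcription factors and switches on targets such as Ccn1 and Ccn2. After injury the intestinal epithelium passes through a state that resembles fetal epithelium, marked by Ly6a, and YAP is needed for Clu-marked revival stem cells. The secreted members are Edn1 (endothelin 1, a peptide ligand of the endothelin receptors), Thbs1 (thrombospondin 1, a matrix glycoprotein that binds CD47), the matricellular proteins Ccn1 (CYR61) and Ccn2 (CTGF), and Clu (clusterin, an extracellular chaperone). F3 (tissue factor) and Ly6a (Sca-1) sit at the cell surface. Ahnak is a giant scaffold protein beneath the membrane, and Arhgap29 is an intracellular signalling protein.

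F3 and Arhgap29 lie 217 kb apart on chromosome 3, and Ccn1 lies on the same chromosome. In GENCODE M21 on GRCm38, Clu spans chr14:65968483-65981547 on the plus strand, Edn1 chr13:42301476-42307990 (plus), Thbs1 chr2:118111876-118127133 (plus), F3 chr3:121723537-121735048 (plus), Arhgap29 chr3:121952541-122016753 (plus), Ccn1 chr3:145646976-145649981 (minus), Ccn2 chr10:24595442-24598683 (plus), Ly6a chr15:74994877-74998031 (minus) and Ahnak chr19:8989284-9076914 (plus). Ly6a belongs to a family of similar genes, and how reads shared with its relatives were assigned was not tested.

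Promoter sequences, taken as the 250 bases before the start from RefSeq on GRCm38.p6, were found for 5 of the 9 members. They are shown because the members are grouped here as YAP targets and YAP reaches DNA through TEAD factors. The TEAD motif GGAATG, searched on both strands (CATTCC on the other), occurred once each in the promoters of Ccn1, Edn1 and Ahnak, and in 12.6% of all 32851 promoters of that length. The AP-1 motif TGANTCA occurred at 2 places in the promoter of F3 and in 6.75% of all promoters. No match of either motif was found in the 2 promoters of Arhgap29. No sequence shown held both motifs, and the matches did not overlap. Each sequence runs 5′ to 3′ on the strand of its gene, and capitals mark the motif. The windows are chr3:145649986-145650235 on the minus strand for Ccn1, chr13:42301226-42301475 on the plus strand for Edn1, chr19:8989034-8989283 on the plus strand for Ahnak and chr3:121723287-121723536 on the plus strand for F3.
Ccn1: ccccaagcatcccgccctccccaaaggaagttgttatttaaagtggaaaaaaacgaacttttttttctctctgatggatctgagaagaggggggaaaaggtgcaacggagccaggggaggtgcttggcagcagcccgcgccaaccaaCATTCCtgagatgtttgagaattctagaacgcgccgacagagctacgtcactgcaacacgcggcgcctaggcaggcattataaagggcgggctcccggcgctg
Edn1: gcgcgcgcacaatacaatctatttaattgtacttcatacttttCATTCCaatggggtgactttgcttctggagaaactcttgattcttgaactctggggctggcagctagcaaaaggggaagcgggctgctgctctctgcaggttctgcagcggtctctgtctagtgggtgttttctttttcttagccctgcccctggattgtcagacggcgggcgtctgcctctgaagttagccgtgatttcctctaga
Ahnak: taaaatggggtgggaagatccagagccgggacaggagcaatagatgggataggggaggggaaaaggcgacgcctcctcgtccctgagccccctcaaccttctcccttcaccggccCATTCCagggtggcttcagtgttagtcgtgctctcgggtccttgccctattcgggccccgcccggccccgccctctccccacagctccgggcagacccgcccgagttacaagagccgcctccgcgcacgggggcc
F3: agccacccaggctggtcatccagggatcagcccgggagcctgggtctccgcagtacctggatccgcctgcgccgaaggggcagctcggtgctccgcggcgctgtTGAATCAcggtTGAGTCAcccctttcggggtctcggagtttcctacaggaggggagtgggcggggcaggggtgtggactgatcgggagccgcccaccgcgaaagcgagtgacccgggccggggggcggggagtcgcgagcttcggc
The TEAD match began 103 bases before the start of Ccn1, 207 before that of Edn1 and 135 before that of Ahnak, and the AP-1 matches began 146 and 135 bases before that of F3. These are matches of letters only.

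Under RANKL the members did not follow a single course. All 9 varied over the 10 days (edgeR quasi-likelihood test of any difference between days, adjusted p at most 0.00125), as did 58.6% of the 10000 genes tested. Clu, Edn1, F3, Ly6a, Ccn2, Ahnak and Arhgap29 had their 2 highest daily means on days 6 and 9, with lower means on days 7 and 8. For F3, Ly6a, Ccn2, Ahnak and Arhgap29 the mean of day 6 did not exceed the next in order by more than both SDs summed. For these genes in turn, that next day was 8, 8, 7, 2 and 8. Thbs1 had its highest mean on day 5, and Ccn1 on day 9 with day 0 next. Ccn1, Ccn2 and Thbs1 were lowest on day 3. Edn1 had a further maximum on day 1, and Clu, Ly6a, F3, Ahnak, Ccn2 and Arhgap29 on day 2. For F3 and Ccn2 the day 2 mean did not exceed that of day 1 by more than both SDs summed. For Arhgap29 it did not so exceed that of day 4. A plate's level sums many cell types, so fewer cells of a type and less RNA per cell cannot be told apart in it.

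**Figure D1:**
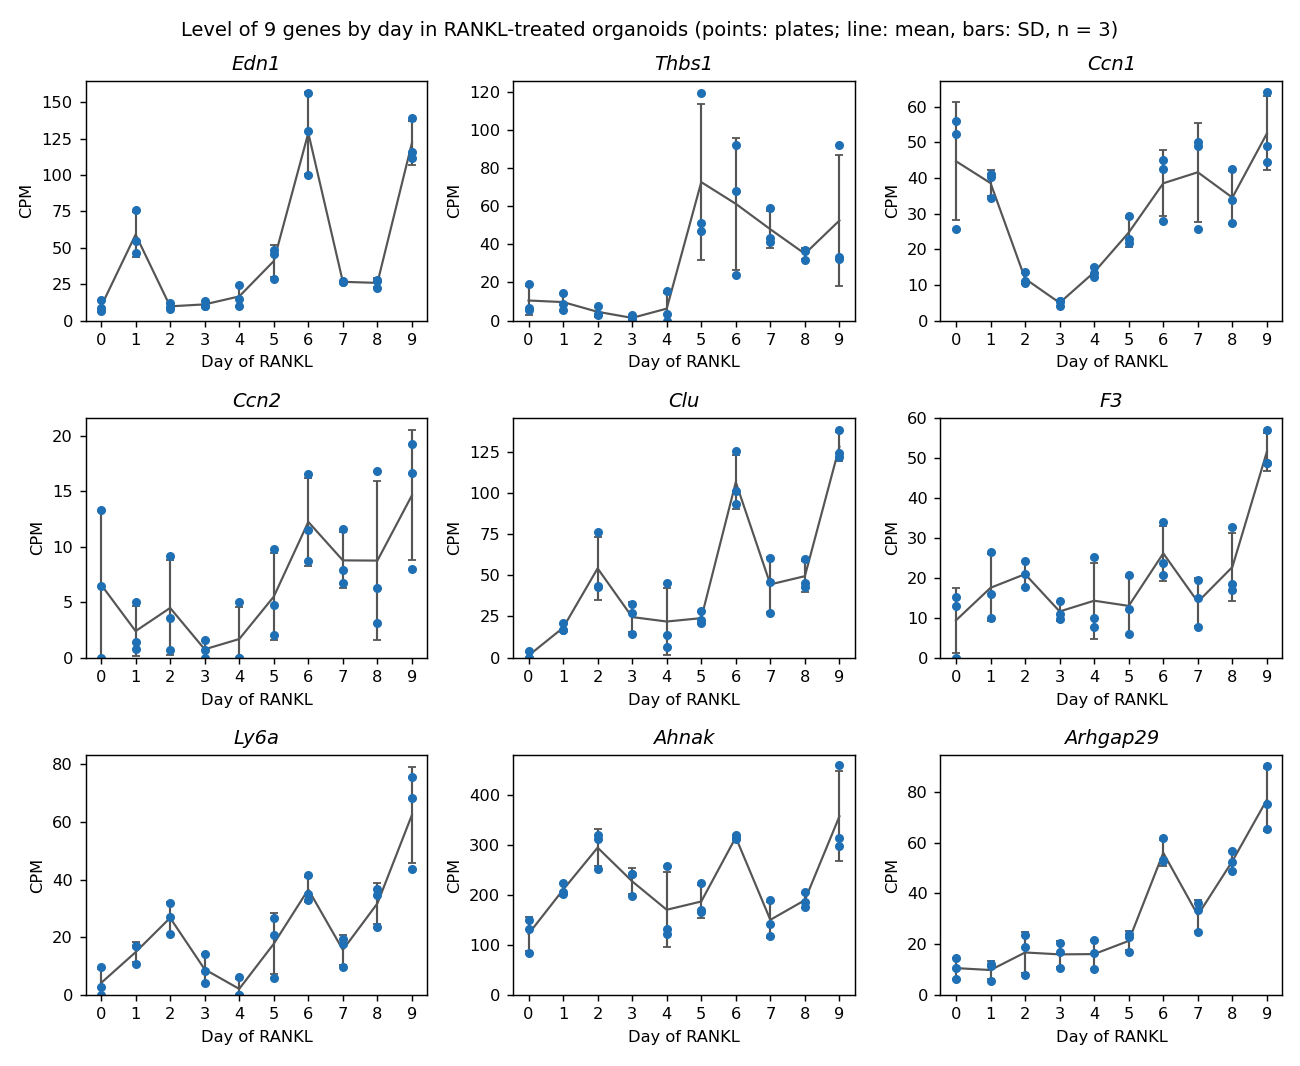
Level of each of the 9 genes (CPM, y axis from 0) by day of RANKL (x axis); points are plates, the line joins the daily means and bars are the SD of 3 plates. Edn1 and Clu stand highest on days 6 and 9, and Ccn1 is lowest on day 3, at 4.97 CPM.

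Of the secreted ligands, Edn1 was at 8.28, 6.42 and 14.3 CPM in the 3 plates of day 0 and at 76.1, 46.6 and 54.5 CPM on day 1. It was back at 8.11 to 12 CPM on day 2, so that the plates of day 1 stood apart from those on either side. On day 5 it was at 48.3, 28.2 and 46.0 CPM, and on day 6 at 156, 130 and 100.1 CPM. On days 7 and 8 all 6 plates lay between 22.4 and 27.8 CPM. On day 9 the 3 plates were at 139, 115 and 111 CPM, above every plate of days 7 and 8. In order of their means, days 6 (129 ± 28.1 CPM, SD, n = 3) and 9 (122 ± 15) did not differ beyond their spread, day 9 lay above day 1 (59.1 ± 15.2) by more than both SDs summed, and days 1 and 5 (40.8 ± 11) did not differ beyond theirs.

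Thbs1 was low at first, with plates between 0 and 19.3 CPM on days 0 to 4. On day 5 the plates were at 51.1, 119 and 47.0 CPM, above all plates of days 0 to 4. It stayed at 23.8 to 91.8 CPM from day 6 to day 9, and the order of days 5, 6, 9 and 7 was within the spread of the plates. A single plate stood high on day 9 (91.8 CPM, against 33.3 and 32.1).

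Ccn1 was at 56.1, 25.7 and 52.3 CPM on day 0 and at 5.43, 3.95 and 5.54 CPM on day 3, with no overlap. It was at 12.3 to 15.1 CPM on day 4, 21.8 to 29.3 CPM on day 5 and 44.4 to 64.2 CPM on day 9, and the plates of day 9 overlapped those of day 0. Ccn2 was the sparsest member, with 1 to 39 UMIs per day over all 3 plates, the fewest on day 4 and the most on day 6. Its mean was 6.59 ± 6.66 CPM (SD, n = 3) on day 0, 0.752 ± 0.792 on day 3 and 14.6 ± 5.87 on day 9.

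Clu was close to absent on day 0, with 4 UMIs, all in replicate 3, and levels of 0, 0 and 3.81 CPM. It was at 16.8, 16.8 and 20.8 CPM on day 1 and at 43.3, 76.5 and 42.9 CPM on day 2. On day 5 the plates were at 22.7, 28.2 and 21 CPM and on day 6 at 93.6, 125 and 101 CPM, with no overlap. On day 7 they were at 45.7, 60.4 and 27.3 CPM, on day 8 at 43.0, 60.2 and 45.3 CPM, and on day 9 at 124, 122 and 138 CPM. Days 9 and 6 led, did not differ beyond their spread, and stood above day 2, the next in order, by more than both SDs summed.

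Of the surface proteins, F3 was at 48.9, 48.9 and 57.2 CPM on day 9, above every plate of the 9 earlier days, of which the highest was at 33.9 CPM. Ly6a was at 2.76, 0 and 9.52 CPM on day 0, at 41.5, 35.2 and 33.1 CPM on day 6 and at 75.5, 43.7 and 68.2 CPM on day 9. Its plates of day 7 (9.69 to 19.4 CPM) lay below those of day 6, and those of day 8 (23.6 to 36.9 CPM) overlapped them. On days 1, 2 and 3 Ly6a had means of 14.8 ± 3.50, 26.7 ± 5.46 and 8.84 ± 5.17 CPM (SD, n = 3), and F3 of 17.5 ± 8.38, 20.9 ± 3.37 and 11.6 ± 2.34 CPM.

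Of the intracellular members, Ahnak was at 132, 83.4 and 150.4 CPM on day 0, at 320.4, 314 and 312 CPM on day 6 and at 461, 314 and 297 CPM on day 9. On day 7 it was at 142, 190 and 118 CPM and thus overlapped day 0. It had also been at 252 to 320 CPM on day 2. Arhgap29 was at 14.7, 6.42 and 10.5 CPM on day 0, at 53.0, 62.1 and 53.1 CPM on day 6 and at 90.3, 65.5 and 75.3 CPM on day 9, which stood above day 6, the next in order, by more than both SDs summed. Its day 8 plates (48.9 to 56.9 CPM) overlapped those of day 6.

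Against day 0, day 1 of RANKL brought 3 of the 9 members up and none down, where 23.8% of all genes were called. Edn1 rose by 2.44 ± 0.30 on the log2 scale (SE here and for each change below, edgeR quasi-likelihood test, adjusted p = 9.1e-08) and Clu by 3.29 ± 0.69. Ahnak rose by 0.67 ± 0.21. With cells thinned to 1000 UMIs the Clu call was lost (edgeR adjusted p = 0.27).

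On day 3 the members split, with 2 up and 3 down, and 20.4% of all genes were called. Clu stood 3.73 ± 0.65 above day 0 and Ahnak 0.78 ± 0.21. Ccn1 had fallen by 3.31 ± 0.32 (edgeR adjusted p = 4.36e-10), Ccn2 by 3.44 ± 0.96 and Thbs1 by 2.98 ± 0.94. The Thbs1 call was lost without RANKL day 0 replicate 1 (edgeR adjusted p = 0.376), and without day 3 replicate 1 (0.0631) or 2 (0.0821). The Ccn2 call was lost without RANKL day 0 replicate 3 (edgeR adjusted p = 0.139) and with cells weighted equally (log2 change -1.72, limma adjusted p = 0.147). From day 3 to day 4, 0 of 9 members passed the edgeR test, with 2 at an unadjusted p under 0.05 and 0 by DESeq2, and 9.34% of all genes were called.

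By day 6, 6 of the 9 members were above day 0 and none below, where 38.3% of all genes were called. Clu was 57.2-fold higher (log2 change 5.84 ± 0.53, edgeR adjusted p = 4.8e-11), a value that rests on the 4 UMIs of day 0. It was 4.98 with cells thinned to 1000 UMIs, and without RANKL day 0 replicate 3 no fold can be given, since the other day 0 plates had no Clu UMI. Edn1 was 11.8-fold higher (log2 change 3.56 ± 0.28, edgeR adjusted p = 2.83e-12). The log2 change was 2.68 ± 0.50 for Ly6a (2.26 to 5.81 over the alternatives, from 13 UMIs on day 0), 2.35 ± 0.53 for Thbs1, 2.20 ± 0.32 for Arhgap29 and 1.25 ± 0.21 for Ahnak. F3 fell just short with a log2 change of 1.03 ± 0.42 (edgeR adjusted p = 0.0501), and was past the threshold in 10 of 18 alternative settings. Ccn1 and Ccn2 did not pass.

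By day 9, 7 of the 9 members were above day 0, none was below, and 36.4% of all genes were called. The 6 members called on day 6 were joined by F3 (log2 change 2.01 ± 0.40, edgeR adjusted p = 0.000127). Clu was 69.1-fold higher (log2 change 6.11 ± 0.52, and 5.28 with cells thinned to 1000 UMIs), with the same limit at day 0, and Edn1 11.1-fold. Ly6a stood at a log2 change of 3.43 ± 0.48 (3.03 to 6.56 over the alternatives). The log2 change was 2.65 ± 0.32 for Arhgap29, 1.42 ± 0.21 for Ahnak and 2.04 ± 0.55 for Thbs1. The Thbs1 call was lost without RANKL day 0 replicate 3 (edgeR adjusted p = 0.0632), with cells thinned to 1000 UMIs (log2 change 1.15, edgeR adjusted p = 0.154) and with cells weighted equally (limma adjusted p = 0.055). The comparisons with day 0 share its 3 plates, 1 of them with 26 cells.

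The steps around days 6 and 9 were compared after the daily levels had been seen. From day 5 to day 6, 4 of the 9 members rose and none fell, where 4.33% of all genes were called. Clu rose by 2.15 ± 0.30 on the log2 scale (edgeR adjusted p = 1.57e-05), Edn1 by 1.65 ± 0.21, Arhgap29 by 1.39 ± 0.27 and Ahnak by 0.76 ± 0.19. The Ahnak call was lost without RANKL day 5 replicate 1 (edgeR adjusted p = 0.0736) or 3 (0.081), and the Arhgap29 call with cells thinned to 1000 UMIs (0.156).

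From day 6 to day 7, 5 members fell and none rose, where 6.3% of all genes were called. Edn1 fell by 2.27 ± 0.21 on the log2 scale (edgeR adjusted p = 1.24e-08), Clu by 1.24 ± 0.27 and Ahnak by 1.07 ± 0.19. Ly6a fell by 1.21 ± 0.37 (edgeR adjusted p = 0.0396) and Arhgap29 by 0.82 ± 0.25 (0.0373). The Ly6a call was lost when any single plate of day 6 or 7 was left out (edgeR adjusted p between 0.0553 and 0.184), and the Arhgap29 call was lost without any 1 of 5 of those 6 plates (0.0552 to 0.169).

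From day 8 to day 9, 4 members rose and none fell, where 4.03% of all genes were called. Edn1 rose by 2.23 ± 0.22 on the log2 scale (edgeR adjusted p = 9.27e-08), Clu by 1.36 ± 0.26, Ahnak by 0.90 ± 0.19 and F3 by 1.22 ± 0.33. The Clu calls of both steps, day 6 to 7 and day 8 to 9, were lost with cells thinned to 1000 UMIs (edgeR adjusted p = 0.156 and 0.0949) and with cells weighted equally (limma adjusted p = 0.11 and 0.206). The F3 call (edgeR adjusted p = 0.0303) was lost without RANKL day 8 replicate 1 (0.13) or 2 (0.125), or day 9 replicate 2 (0.0776) or 3 (0.112).

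**Figure D2:**
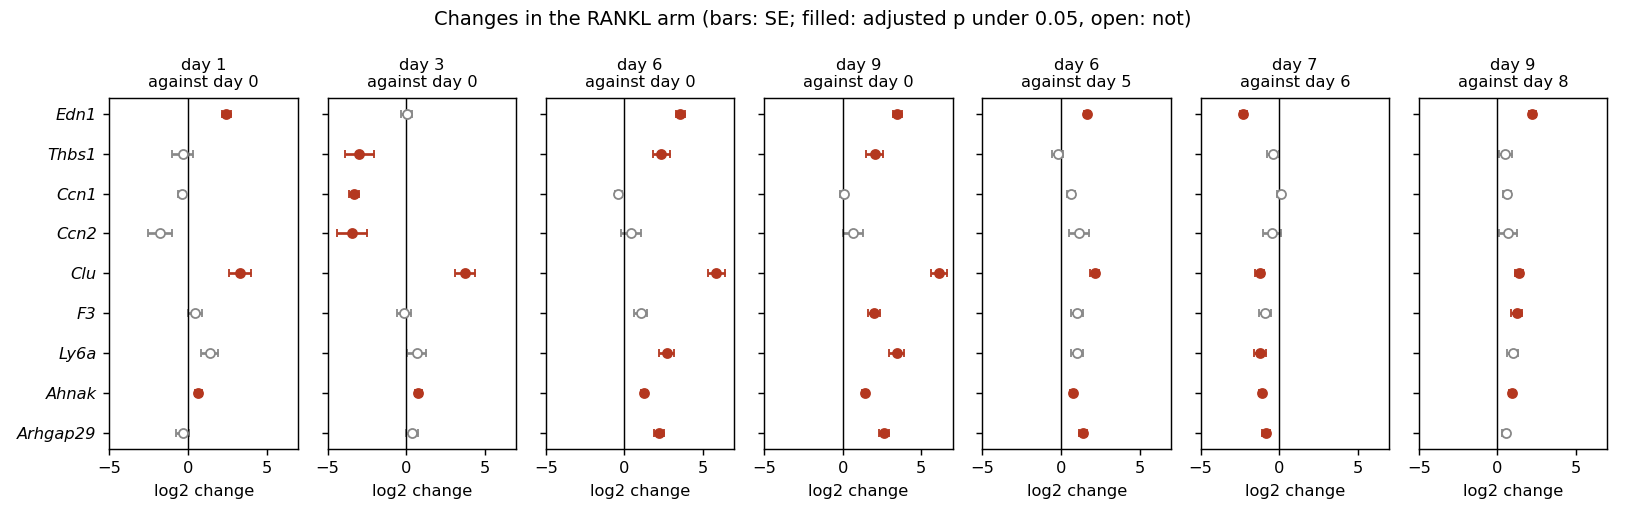
Log2 change of each member (x axis) in 7 comparisons of days under RANKL (panels); bars are SE, filled points passed the edgeR test at an adjusted p of 0.05 and open points did not. Clu and Edn1 lie right of 0 in the panels of day 6 against day 5 and day 9 against day 8, and left of it in day 7 against day 6.

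Genes outside the members with the most similar 10 daily means, among 5662 genes of mean log2 CPM of 5 or more, are given as a description, since the days share plates and depth. For Clu these were Myrf and Nceh1 (Pearson r = 0.97 each) and Rsf1 (0.96). For Edn1 they were Cbx7 (0.96), a Polycomb subunit, then Amot and Elmsan1 (0.88 each). Ly6a went most with Ccnd1 (0.98), which encodes cyclin D1, Anxa3 (0.96) and Far1 (0.95). Thbs1 went with Mcmbp (0.95), Ehf (0.94) and Amotl2 (0.94), and Arhgap29 with Arhgef38, Wls and Arhgef12 (0.97 each). The first neighbour was Sh2d4a for F3 (0.93), Tada2a for Ccn1 (0.92), Sh3rf1 for Ccn2 (0.95) and Foxq1 for Ahnak (0.94). Next came Mafg and Rock1 for F3, Rnd3 and Aida for Ccn1, Ubald1 and Lmo4 for Ccn2, and Frat1 and Ezr for Ahnak. These are neighbours at a prior count of 2; at 0.5 the 3 genes were the same for Arhgap29, Ccn1 and Ahnak, whereas Myrf left those of Clu, Elmsan1 those of Edn1, Amotl2 those of Thbs1, Far1 those of Ly6a, Mafg those of F3, and Ubald1 and Lmo4 those of Ccn2. Between members, r ranged from -0.06 (Ccn1 and Ahnak) to 0.89 (Clu and F3).

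Other genes of the fetal and repair programme were read from a list of 18, of which 12 were tested in the RANKL arm. Summed over the 16 present in the RANKL table, their daily mean was 790 CPM on day 0 and highest on days 1 and 2, at 2306 and 2529 CPM. It was 1352 CPM on day 6, 972 on day 7, 959 on day 8 and 1361 on day 9. Such a sum weighs abundant genes most. Of the 12 tested, 7 were above day 0 on day 6 and 1 was below, where 38.3% of all genes were called. The median log2 change was 1.24 over the 12, against 0.04 over all genes. Anxa3, an annexin, was 3.20 ± 0.41 higher on the log2 scale, Il1rn, the interleukin 1 receptor antagonist, 5.84 ± 0.67, and Cxadr, a junction protein, 1.37 ± 0.55. Msln (mesothelin) had 0 CPM on day 0 and 15.3 ± 10.2 CPM (SD, n = 3) on day 6. From day 6 to day 7, 5 of the 12 fell and none rose, where 6.3% of all genes were called. Those that fell included Anxa3 (by 1.76 ± 0.30) and Il1rn (by 1.27 ± 0.31). From day 8 to day 9, 3 rose and none fell, where 4.03% of all genes were called. These 3 were Anxa3 (1.38 ± 0.27), Il1rn (1.29 ± 0.33) and S100a6 (0.82 ± 0.14).

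Of 20 further YAP and TEAD targets, 10 were tested. On day 6, 5 were above day 0 and 2 below (median log2 change 1.39, 38.3% of all genes called), and on day 9, 6 above and 1 below (36.4% of all genes called, median 1.34, against 0.03 over all genes). Ptpn14, a phosphatase that restrains YAP, was 3.69 ± 0.68 higher on day 6 on the log2 scale, Amotl2, an angiomotin that binds YAP, 2.68 ± 0.36, and Ajuba, a LIM protein that inhibits LATS, 2.48 ± 0.31. Ajuba was at 53.5 ± 1.96 CPM (SD, n = 3) on day 6 and 22.5 ± 1.86 on day 7, and its fall passed (log2 change -1.25 ± 0.23, edgeR adjusted p = 0.000504). From day 8 to day 9, 0 of the 10 passed, where 4.03% of all genes were called.

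Of 19 core Hippo genes, 15 were tested and 5 were above day 0 on day 6, with 1 below, a share near the 38.3% of all genes called. The log2 changes were 2.15 ± 0.33 for Tead2 and 1.14 ± 0.17 for Tead1, followed by Amot (1.04 ± 0.17) and Vgll4 (0.73 ± 0.23), a competitor of YAP on TEAD. None of the 15 was called from day 5 to 6, 6 to 7 or 8 to 9, where 4.33%, 6.3% and 4.03% of all genes were called.

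Among 20 receptors, ligands and binding partners of the members, 12 were tested. On day 6, 3 were above day 0 and 2 below, a share near the 38.3% of all genes called. Cd47, the receptor of thrombospondin 1, was 1.22 ± 0.12 higher on the log2 scale and Itgav, an integrin chain that binds CCN proteins, 1.89 ± 0.25. Anxa2, a partner of Ahnak, was lower (-1.05 ± 0.15). Cd47 was the 1 partner called from day 5 to day 6 (0.38 ± 0.11) and from day 8 to day 9 (0.67 ± 0.11), and it was 1 of 3 that fell from day 6 to day 7 (-1.01 ± 0.11). Over all genes 4.33%, 4.03% and 6.3% were called in these steps.

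Immediate early genes, which respond within minutes to growth factors and to handling of cells, were mostly lower on days 3 and 6 than on day 0. Of 16, 14 were tested. On day 6, 9 were below day 0 and 1 above (38.3% of all genes called), and on day 3, 9 were below and 2 above (20.4%). Fos stood at 568 ± 148 CPM (SD, n = 3) on day 0, 66.1 ± 8.25 on day 3 and 95.7 ± 17.5 on day 6. From day 8 to day 9, 4 rose and none fell (4.03% of all genes called), with Junb 1.07 ± 0.19 and Klf6 0.94 ± 0.17 higher on the log2 scale. Their part in the members' levels was not tested.

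Markers of endothelium and immune cells, which can also carry Edn1, Thbs1, F3 and Ly6a, were summed per plate. Of 7 endothelial markers, 6 were in the RANKL table, none at 0 throughout, and they summed to 7.04 to 32.1 CPM per plate. Their sum was 23.7 to 28 CPM on day 5, 19.4 to 22.6 CPM on day 6 and 13.3 to 26.1 CPM on day 9. Beside it on day 5, F3 was at 6.00 to 20.6 CPM and Ly6a at 6.00 to 26.5 CPM. Edn1 was then at 28.2 to 48.3 CPM and Thbs1 at 47.0 to 119 CPM. Of 8 immune markers, 6 were in the table, none at 0 throughout, and they summed to 0 to 35.3 CPM per plate. Of the 6558 RANKL cells, 126 held 2 or more UMIs of the fibroblast, endothelial and immune markers. With these removed, 7 members were above day 0 on day 6, F3 being the added call (edgeR adjusted p = 0.0468). With them kept, 38.3% of all genes were called. So few cells were removed that the 2 fits could differ little, and the cell source of the members was not tested.

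By cell, 7 members were highest in the same cluster, and Thbs1 and Ccn1 were highest elsewhere. Cells were clustered with the 9 genes left out. The cluster followed here was then chosen because it had the most members among its top genes by fold. High member levels in it are thus partly fixed by that choice and are a description only. This cluster of 735 RANKL cells was led, members aside, by Anxa3, Bmp3, Gprc5a and Tmem237. It met the markers of no cell type and is called by the first of these genes. It made up 32.2% ± 3.88 (SD, n = 3 plates) of the cells on day 6 and 38.3% ± 6.92 on day 9. On days 5, 7 and 8 its share was 7.47% ± 0.631, 7.68% ± 1.18 and 9.51% ± 1.23, and on days 0 to 3 its mean share was at most 1.96%. On day 4 it was 14.5% ± 2.95, above those 3 days, which rests on 30 cells of the cluster. Over whole plates Clu (21.9 ± 20.6 CPM) and Edn1 (16.6 ± 7.45 CPM) were low that day. Only 1 plate of day 4 had 10 or more cells of the cluster, with Edn1 at 106 CPM and Clu at 0 inside it. Outside it, the day 4 plates were at 12.4 ± 6.58 CPM for Edn1 and 24.8 ± 24.1 for Clu. In share of cells, the plates of days 6 and 9 lay above those of all other days.

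Over its cells, the Anxa3-led cluster held 132 CPM of Clu, 151 of Edn1, 467 of Ahnak, 82.2 of Arhgap29, 55.6 of F3, 51.3 of Ly6a and 21.9 of Ccn2, for each of these 7 genes the highest value among the 15 clusters. These values pool cells over days, and of the 735 cells 250 were from day 6 and 248 from day 9. On day 7 Arhgap29 was at 23.8 ± 5.14 CPM (SD, n = 3) inside it and 32.6 ± 7.25 outside. As clusters are made from these cells, no test was run. A coarser clustering (resolution 0.5) merged it into a stem-like cluster of 2082 cells, in which Clu was at 78.7 CPM and Edn1 at 91.0.

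On days 6 and 9 Clu and Edn1 were high in this Anxa3-led cluster and were also found outside it. On day 6 it held 42.3% of the Clu UMIs (mean of 3 plates, range 35.5% to 50.9%) and 51.2% of those of Edn1 (40.9% to 59.5%). Outside it, Clu was at 98.0 ± 25.8 CPM (SD, n = 3) on day 6 and 20.1 ± 1.96 on day 5, and Edn1 at 98.8 ± 25.6 and 32.9 ± 10.3. The plates did not overlap in either case. Inside it, Edn1 was at 216 ± 74.8 CPM on day 6, 43.4 ± 11.3 on day 7 and 173 ± 15.2 on day 9. Clu inside it was at 143 ± 13.6 CPM on day 6 and 178 ± 18.2 on day 9. Its plates spread widely there on day 5 (0 to 110 CPM) and on day 7 (23.5 to 375 CPM).

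**Figure D3:**
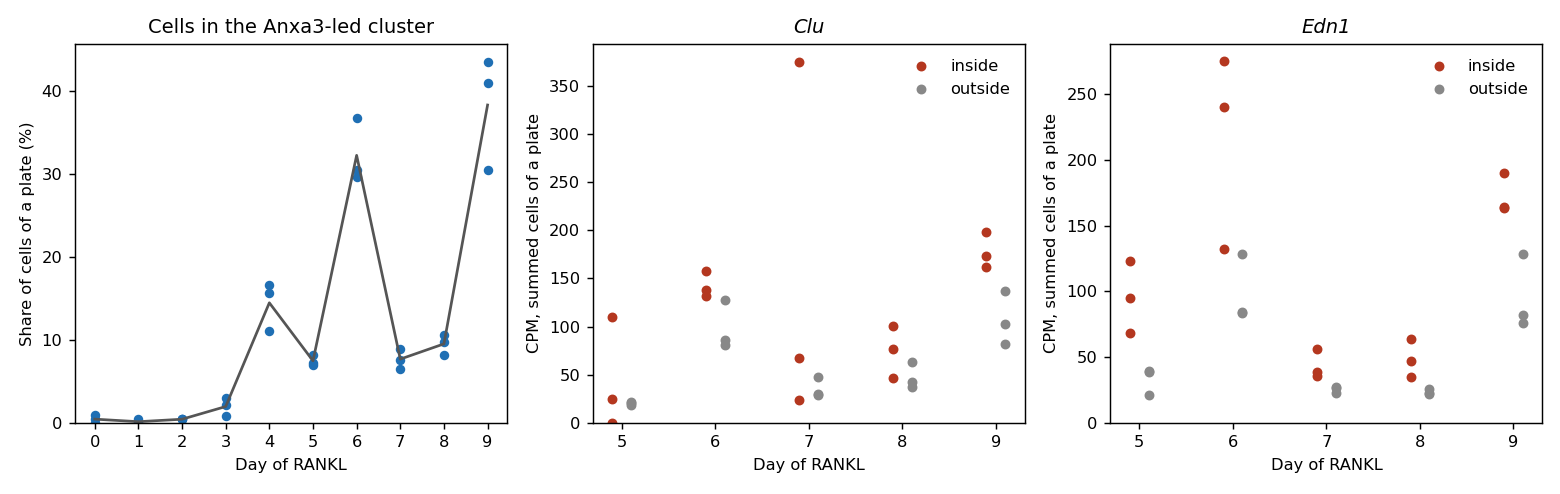
Left, share of each plate's cells in the Anxa3-led cluster (percent) by day of RANKL, with the daily mean as a line; middle and right, Clu and Edn1 (CPM over summed cells of a plate) inside and outside that cluster on days 5 to 9, a point per plate. The share is 32.2% on day 6 and 38.3% on day 9, and both genes are also higher outside the cluster on those days than on day 5.

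Thbs1 and Ccn1 had their highest levels, pooled over days, in other clusters, which does not give where most of their UMIs lay. On day 9 the Anxa3-led cluster held 43.7% of the Thbs1 UMIs and 50.1% of those of Ccn1 (means of 3 plates). On day 5 Thbs1 inside it was at 361 ± 432 CPM (SD, n = 3, range 35.6 to 851). Thbs1 was at 245 CPM in the 206 cells of the enteroendocrine-like cluster, where 26.7% of cells had a UMI, and at 82.8 CPM in the Anxa3-led cluster. It was at 3.82 CPM in the 153 tuft-like cells, of which 1.31% had a UMI. The median depth was 2465 UMIs in the enteroendocrine-like cells and 2811 in the tuft-like cells. Ccn1 was at 78.0 CPM in a cluster of 216 cells led by Gm1123, Fosb and Pla2g5, against 61.3 CPM in the Anxa3-led cluster.

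Detection of several members in a cell was counted with each cell thinned to 2000 UMIs, a depth at which a cell without a UMI of a gene may still express it. By this count, at least 3 of the 8 members other than Ahnak were seen in 25 of 662 cells on day 6 (3.78%, exact Clopper-Pearson 95% interval 2.46% to 5.52%) and in 37 of 562 on day 9 (6.58%, 4.68% to 8.96%). On the other RANKL days the share was at most 2.08%, on day 5. These intervals cover counting error only. In the 1224 cells of days 6 and 9, 46.1% of the 76 cells with Ly6a also had Clu, against 15.6% of the remaining cells. Ccn2 and Clu met in 43.3% of the 30 cells with Ccn2, against 16.8% of the rest. Clu and Edn1 met in 22.4% of the 214 cells with Clu and 18% of the rest.

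With CSRM617, Clu was higher and Edn1 and Ccn1 were lower on day 3 than on day 0, and Ccn1 was not detected on day 6. In that arm, 0 of the 6 members tested passed on day 1 (edgeR, 1 at an unadjusted p under 0.05, 0 by DESeq2), where 4.37% of all genes were called. On day 3, 1 was above and 2 were below day 0, where 18% of all genes were called. Clu rose from 6.23 and 0 CPM to 58.5 and 69.8 CPM (log2 change 3.96 ± 0.78, edgeR adjusted p = 0.000819). Edn1 fell from 34.2 and 13 CPM to 3.44 and 0 CPM (-3.71 ± 1.21, edgeR adjusted p = 0.0351), and Ccn1 from 74.7 and 46.9 CPM to 6.88 and 0 CPM (-4.13 ± 0.88). The Edn1 call was lost without day 0 replicate 1 (edgeR adjusted p = 0.301), day 3 replicate 1 (0.0681) or day 3 replicate 2 (0.262), and the Ccn1 call without day 3 replicate 2 (0.0529). With cells weighted equally none of the 3 passed (limma adjusted p between 0.113 and 0.217).

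On day 6 with CSRM617, 1 of 6 members passed, downward, where 7.51% of all genes were called. This was Ccn1, with 66 UMIs on day 0 and 0 of 263273 UMIs on day 6 (edgeR adjusted p = 0.0168). A count of 0 allows up to 11.4 CPM there. The call was lost without day 0 replicate 1 (edgeR adjusted p = 0.0779) or without either plate of day 6 (0.142 and 0.122). Clu was at 25.1 and 52.8 CPM (edgeR adjusted p = 0.0566). Edn1 was at 8.37 and 17.6 CPM, which overlaps day 0.

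Between the arms, Ahnak differed already on day 0. There it had 314 UMIs of 2459422 in the RANKL plates and 1 of 1049410 in the RANKL+CSRM617 plates. It was the 1 member called there (log2 difference -6.76 ± 0.65, edgeR adjusted p = 4.88e-10), where 9.82% of all genes were called, and its difference was the fourth lowest of 8766 genes. Whether both tables were made with the same index and annotation is not known here, a limit on every difference between the arms. The arms were also separate sets of plates, so CSRM617 cannot be told apart from the plate set in any of these differences. Kept cells had a median of 4704.5 UMIs in the RANKL arm and 2844 in the RANKL+CSRM617 arm. Ahnak passed as lower also on days 1 to 3 and 4 to 6, and these calls are not read as differences between the arms. Of the 14 immediate early genes, 6 were also higher in the RANKL+CSRM617 plates on day 0, and none was lower.

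Over days 1 to 3, 1 member besides Ahnak was lower with CSRM617, Edn1, and 28.6% of all genes were called. Edn1 differed by -1.65 ± 0.49 on the log2 scale (RANKL+CSRM617 minus RANKL, edgeR adjusted p = 0.0103). The call was lost without RANKL+CSRM617 day 2 replicate 2 (edgeR adjusted p = 0.0733) or day 3 replicate 2 (0.0672).

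Over days 4 to 6, 2 members besides Ahnak were lower with CSRM617, Edn1 and Ccn1, and 22.4% of all genes were called. Edn1 had 17 UMIs of 985869 there and 563 of 7549725 in the RANKL plates, and differed by -1.18 ± 0.43 on the log2 scale (edgeR adjusted p = 0.044). That call was lost on leaving out any 1 of 10 plates: RANKL day 4 replicate 2, day 5 replicates 1 and 3 and day 6 replicates 1 and 2, and RANKL+CSRM617 day 4 replicate 1 and both plates of days 5 and 6. The highest adjusted p was that without RANKL+CSRM617 day 4 replicate 1 (edgeR, 0.256), which leaves for that day the plate of 24 cells, at 116 CPM. Ccn1 had 2 UMIs there and 215 in the RANKL plates, a ratio of 14 in favour of RANKL (exact 95% interval 3.84 to 117, counting error only). Its log2 difference was -4.17 ± 0.93 (edgeR adjusted p = 0.000895). Ccn2 had 0 UMIs there and 56 in the RANKL plates, at least 2.44-fold higher under RANKL with a floor of 3 counts over the group, and did not pass (edgeR adjusted p = 0.245).

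The difference of the changes, from day 0 to days 4 to 6, passed for 2 of 9 members, where 6.34% of all genes were called. The difference (RANKL+CSRM617 minus RANKL, log2 scale) was -2.54 ± 0.68 for Edn1 (edgeR adjusted p = 0.0188) and -4.61 ± 1.01 for Ccn1 (edgeR adjusted p = 0.00348), where the median over all genes was -0.12. With cells thinned to 1000 UMIs neither passed, at -3.04 ± 1.36 for Edn1 (edgeR adjusted p = 0.23) and -2.87 ± 1.51 for Ccn1 (0.318). The Edn1 call was also lost without RANKL+CSRM617 day 0 replicate 1 (edgeR adjusted p = 0.446) or RANKL day 0 replicate 1 (0.0632). For Clu, scaled over both arms, the day 6 plates were at 89.6, 120.2 and 97.3 CPM under RANKL and at 26.3 and 54.1 CPM with CSRM617, with no overlap, and the difference of changes did not pass (edgeR adjusted p = 0.632). The change from day 5 to day 6 passed as different between the arms for 0 of 9 members (edgeR, 1 at an unadjusted p under 0.05, 0 by DESeq2), where 3.1% of all genes were called. This comparison was also added after the levels had been seen.

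**Figure D4:**
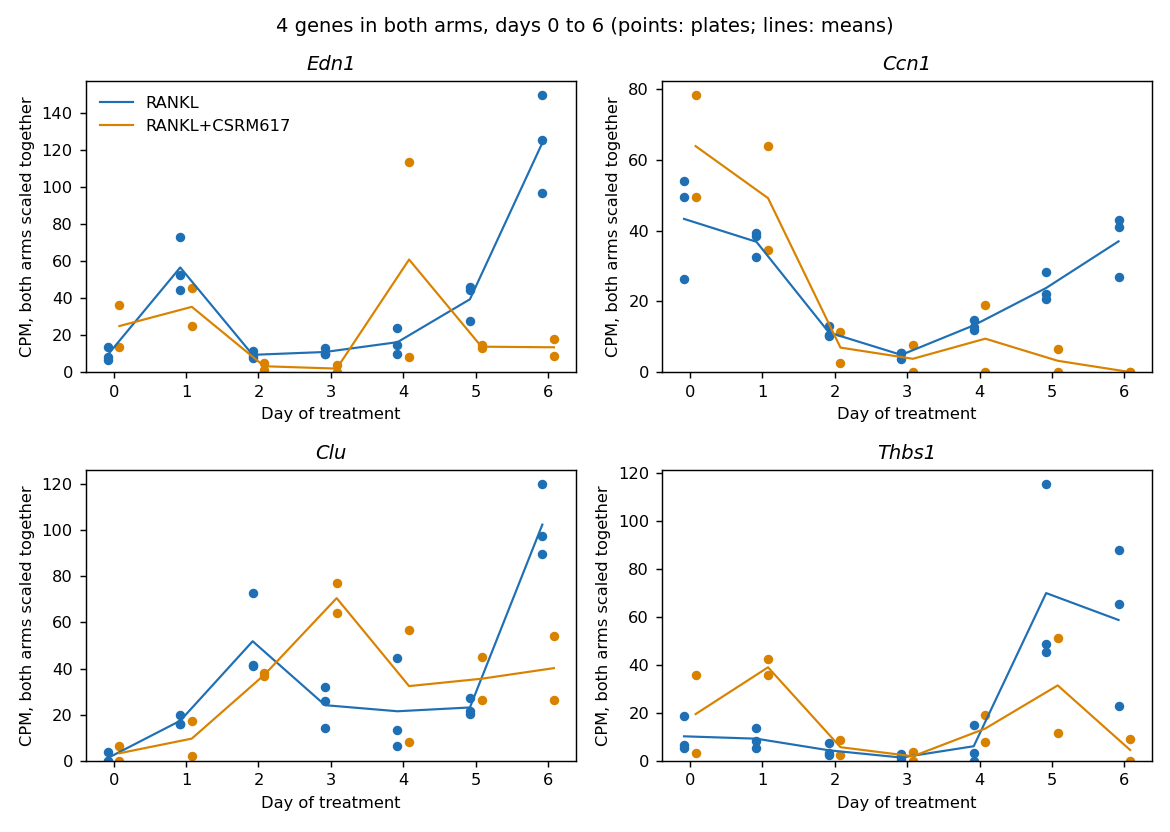
Edn1, Ccn1, Clu and Thbs1 (CPM scaled over both arms, y axis from 0) on days 0 to 6 in the RANKL arm (3 plates a day) and the RANKL+CSRM617 arm (2 plates a day); points are plates and lines join daily means. Ccn1 is at 0 in both RANKL+CSRM617 plates of day 6, and the high Edn1 point on day 4 is the plate of 24 cells.

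Over days 4 to 6, 22.4% of all genes were called as different between the arms. Among the wider lists, 0 of 8 further YAP and TEAD targets tested differed there (edgeR). Of 13 core Hippo genes, 4 were higher and 2 lower with CSRM617, with Tead2 at -1.78 ± 0.46 and Vgll4 at -1.45 ± 0.36 on the log2 scale. Of 11 fetal and repair genes, S100a6 was higher (0.72 ± 0.12) and Vsig1 lower (-4.20 ± 1.04). Of 12 partners, 5 were higher and none lower, led by Itgav (1.41 ± 0.16) and Anxa2 (1.25 ± 0.11).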

How the data were processed

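The authors deposited UMI count tables of single cells, 1 per arm, which hold raw counts per gene and well. Per the submitters' processing notes, kallisto, bustools, Seurat 3.1.5 and GRCm38 were used; no source used here gives their order or settings. The members and gene lists were chosen with earlier results of these data known.

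Wells with under 1000 UMIs were left out, and counts were summed by plate. Plates, 30 with RANKL and 14 with RANKL+CSRM617, served as samples and were grouped by the arm and day of the labels. The edgeR 4.0.16 quasi-likelihood test was run with filterByExpr, TMM scaling and Benjamini-Hochberg adjustment over all genes tested (10000, 6499 and 8766 in the RANKL, RANKL+CSRM617 and joint fits), at a threshold of 0.05. The joint fit used days 0 to 6. SEs were derived from the log2 change and F. CPM are counts per 1e6, scaled by TMM, except that values over summed cells of clusters use raw totals. The tests were checked on simulated data.

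Cells were clustered in scanpy 1.11.5 without the members, on 2000 variable genes, 30 principal components and 15 neighbours, by Leiden at resolution 1.0. No doublet caller was run; leaving out cells over 3 times their plate's median UMIs was an alternative. A cluster was named where 3 or more markers of a type, and more than of any other type, were among its top 50 genes by fold. Named genes were every member, up to 4 genes of each list with the largest change past the test, and the 3 genes closest to each member over daily means.

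Alternatives were DESeq2 1.42.0 and its size factors, limma 3.58.1 on equally weighted cells, other cell and count filters, thinning, fits of the compared plates alone, the replicate number as a block, removal of the most abundant gene, and each plate left out. The depth of 155940 to 1640523 UMIs per RANKL plate limits genes of a few UMIs, such as Ccn2. A floor of 3 counts was used where a group had none.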

Additional observations from a re-analysis of the deposited data

Results flagged for a closer look

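For Edn1 the change from day 0 to days 4 to 6 differed between the arms by -2.54 ± 0.68 on the log2 scale (SE, RANKL+CSRM617 minus RANKL, edgeR adjusted p = 0.0188). It is listed because the change itself was tested as different between the arms. Scaled over both arms, Edn1 on day 0 was at 36.0 and 13.7 CPM in the 2 RANKL+CSRM617 plates. In the 3 RANKL plates of day 0 it was at 8.00, 6.56 and 13.5 CPM.

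For Ccn1 the same difference was -4.61 ± 1.01 (edgeR adjusted p = 0.00348), and it is listed for the same reason. On days 4 to 6 it rests on 2 UMIs in the RANKL+CSRM617 plates against 215 in the RANKL plates. With cells thinned to 1000 UMIs the difference was -3.04 for Edn1 and -2.87 for Ccn1, and neither passed.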

How the results depend on the processing

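The members' results that passed, the test of any difference between days included, and F3 on day 6 against day 0, were followed over the alternatives. They kept direction and side of the threshold in 1149 comparisons, gained a call in 10, lost one in 75 and reversed in none. The test of any difference has no direction and so could not reverse. For each member it kept its call in all of its 36 or 37 alternatives, which are part of the 1149. All 10 gains were of F3 on day 6. Other changes that had not passed were left out of this tally, so their gains are not in it. Edn1, Clu, Ly6a, Ahnak and Arhgap29 against day 0 stayed past the threshold on days 6 and 9 in all 18 alternatives.

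Counts of members called, with Ahnak included in those between the arms, moved as follows. With no filter on low counts, day 1 had 5 (3 as reported), day 4 against day 3 had 1 (0) and RANKL+CSRM617 day 6 had 3 (1). With cells thinned to 1000 UMIs, day 3 had 3 (5), day 7 against 6 had 2 (5), day 9 against 8 had 2 (4), the arms at days 1 to 3 had 1 (2), and the difference of changes had 0 (2). With cells weighted equally, day 4 against 3 had 2 (0), day 7 against 6 had 2, day 9 against 8 had 2, RANKL+CSRM617 days 3 and 6 had 0 (3 and 1), and the difference of changes had 1. With only the plates compared, day 3 had 3. RANKL+CSRM617 day 6 had 2 with DESeq2, without stromal or immune cells, and without the most abundant gene. The cause was not tested.

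Leaving out each plate in turn gave 0 to 1 calls for day 4 against 3, 3 to 4 for day 7 against 6, 0 to 1, 1 to 3 and 0 to 1 for RANKL+CSRM617 days 1, 3 and 6, 1 to 3 for the arms at days 1 to 3, and 1 to 2 for the difference of changes.

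Replicate numbers did not pair the plates: deviations of same-numbered plates had a median correlation of 0.00693 over 135 RANKL pairs. With the replicate block, day 1 had 3 calls, day 3 had 5, day 6 had 6 and day 9 had 7. RANKL+CSRM617 day 3 had 2 (3 as reported) and the arms at days 4 to 6 had 2 (3).

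Over all genes, thinning to 1000 UMIs called 2662 genes over the days (5856 as reported), 116 from day 5 to 6 (433), 194 from day 6 to 7 (630) and 98 from day 8 to 9 (403). Equal weights called 3691 between the arms at days 4 to 6 (1962). Shares of cells with a UMI rose with depth: on day 6, Clu was seen in 7.68% of cells at 1000 UMIs, 18.3% at 2000 and 24% unthinned.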
